A study of Pinus pinaster with 18 samples.

Results

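GA2ox3 (ppt_110265) and GA2ox7 (ppt_117714) are 2 transcripts of maritime pine (Pinus pinaster) that match gibberellin 2-oxidases of Pinus tabuliformis, and they were followed here over 6 embryo stages. They are 2 of the 287424 transcripts of the count table and 2 of the 23118 that exceeded 2 CPM (counts scaled to a common library size) in at least 6 libraries. GA2ox3 exceeded 2 CPM in 8 somatic and 2 zygotic libraries, and GA2ox7 in 9 and 3. Both thus passed this filter only through somatic embryos, in which they are high. Both were picked by identifier. The study had named them as hub genes, the most connected genes, of its purple co-expression module, which it built from these same libraries, and they were chosen here with earlier results of these data known. Their levels across the stages are therefore given as a description, with no test.

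The libraries hold poly(A) RNA of whole embryos, 3 per stage, paired-end sequenced on an Illumina NovaSeq. Somatic embryos (SE) came from 1 embryogenic line, PN519, matured in darkness at 24 °C on a medium with 80 µM abscisic acid (ABA), 9 g/L phytagel and 68 g/L sucrose. They were sampled as translucent early-stage embryos at 4 to 6 weeks (ES1), opaque pre-cotyledonary embryos at 6 to 10 weeks (ES2) and cotyledonary embryos at 12 to 14 weeks (ES3). Zygotic embryos (ZE) were excised in the 2015 season from seeds of 1 seed orchard at the pre-cotyledonary (PC), early cotyledonary (EC) and immature cotyledonary (C) stages. Embryo type therefore goes together with genotype, culture, the ABA of the medium and harvest, and these cannot be told apart in any comparison of SE with ZE. The study paired ES1 with PC, ES2 with EC and ES3 with C as presumed counterparts, although ES2 and PC are both named pre-cotyledonary. Embryo type and a shift in developmental stage therefore cannot be separated within a pair. The sources mention technical replicas of independent biological samples without saying which of these the 3 libraries of a stage are, so the spread and the p-values below describe these libraries only. In RNA of whole embryos, fewer cells of a type and less RNA per cell cannot be told apart either.

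Gibberellins are diterpenoid hormones that promote growth and germination, and in seeds they act against ABA, the hormone of maturation and dormancy. Gibberellin 2-oxidases are dioxygenases that use 2-oxoglutarate as a co-substrate and hydroxylate gibberellins into inactive forms, so their transcripts report on the inactivating side of the pathway. On the other sides stand ent-kaurenoic acid oxidase (KAO), a cytochrome P450 of gibberellin synthesis, the soluble receptor GID1, and the GASA proteins, small cysteine-rich proteins many of which respond to gibberellin. The names of all transcripts come from matches in other species, and no activity or hormone was measured.

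Libraries outside C held 22725467 to 43510184 counts and the C libraries 74949347 to 89590401. In C libraries, 137783 transcripts were counted that were at 0 in the other 15 libraries, and they took 29.1% to 29.4% of its counts. TMM scaling factors were 0.422 to 0.428 in C and 0.824 to 1.44 elsewhere, so that the place of C depends on the scaling. Where the scaling turns a direction or a call of gibberellin transcripts in a comparison with C, values or counts on a second scale are given, there or in the closing section. Among replicates, ES3 replicate C stood apart, with a chi-square of 147 and 159 per degree of freedom against the remaining ES3 libraries, where pairs within the other stages gave 12.7 to 76.3. Transcripts of storage proteins and caleosins, 16 markers of late embryo storage tissue, summed to 830 to 1089 CPM in ES1, 882 to 1163 in ES2, 1026 to 1865 in ES3, 154 to 219 in PC, 254 to 385 in EC and 957 to 1069 in C. These are TMM-scaled sums, and the place of C in them depends on the scaling. With deposited totals as library sizes, the caleosin ppt_56102 had 58.6, 64.5 and 55.4 CPM in C, below 111, 84.3 and 83.6 in EC. The 7S globulin ppt_75169 then had 29.1, 34.0 and 25.9 CPM in C, above 14.3, 12.2 and 12.8 in EC. The sums also hide a difference between families. With TMM, ppt_56102 had 228, 211 and 253 CPM in ES1 and 194, 217 and 184 in C. By contrast, ppt_75169 had 14.3, 12.4 and 16.8 CPM in ES1 and 96.0, 114 and 86.3 in C. Of the 16, only the 2S globulin transcript was at 0, in the 3 C libraries, and whether storage tissue plays a part in the levels below was not tested.

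GA2ox3 was low through 2 somatic stages and high in the third. In TMM-scaled CPM it was at 1.97, 3.35 and 3.65 in the 3 ES1 libraries, at 1.03, 3.28 and 2.79 in ES2 and at 61.9, 41.1 and 37.0 in ES3. In ZE it was at 1.06, 1.77 and 1.52 in PC, at 0.937, 0.963 and 0.423 in EC and at 4.33, 3.68 and 3.06 in C. Every ES3 library lay above every other library, while ES1 and ES2 overlapped. The ES3 values rest on 2318, 1808 and 1027 counts and the EC values on 30, 50 and 20, so the low stages carry the larger counting error.

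GA2ox7 was higher at each later somatic stage and also high in C. It was at 2.51, 1.92 and 1.63 CPM in ES1, at 12.0, 6.58 and 6.71 in ES2 and at 45.4, 28.5 and 26.2 in ES3. Its levels in ZE were 0.385, 0.416 and 1.08 CPM in PC, 1.47, 0.848 and 0.401 in EC and 10.3, 15.7 and 13.5 in C. The 3 somatic stages did not overlap with one another, PC and EC did, and C lay above ES1 but overlapped ES2. ES3 replicate A was the highest of the 18 libraries for both transcripts.

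**Figure D1:**
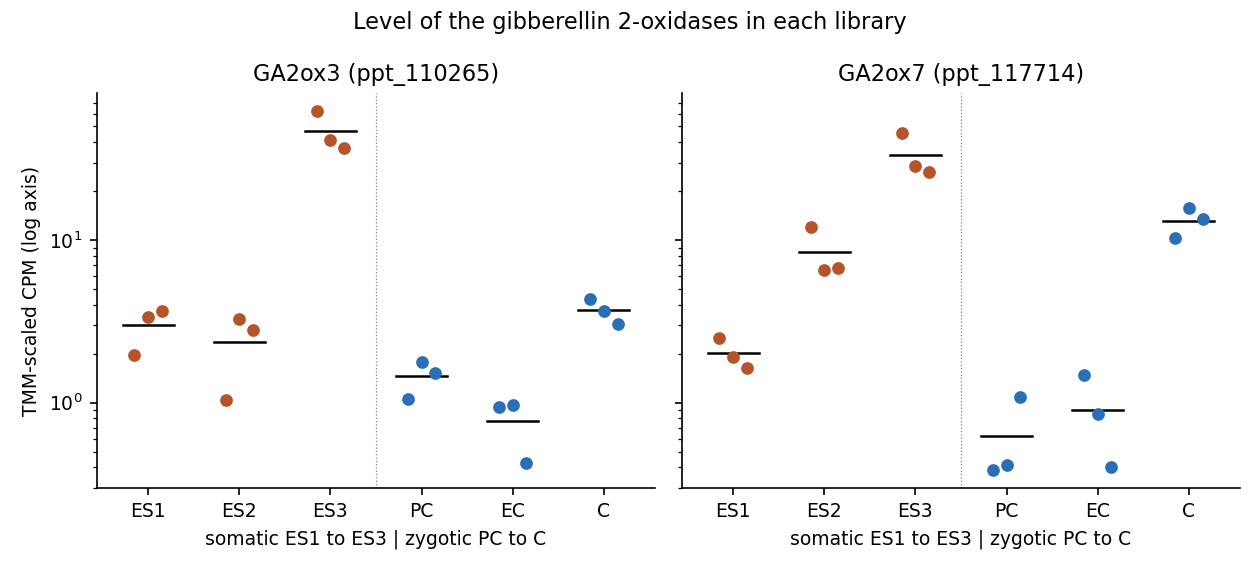
TMM-scaled CPM of GA2ox3 (left) and GA2ox7 (right) in each of the 18 libraries on a log axis, with SE in orange, ZE in blue, points for libraries and bars for the mean of 3. The GA2ox3 points of ES3 (37.0 to 61.9 CPM) stand apart from all others, whereas the GA2ox7 points climb from ES1 over ES2 to ES3 and are also high in C (10.3 to 15.7 CPM).

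The order of the stages was ES3, C, ES1, ES2, PC and EC for GA2ox3, with means of 46.7 ± 13.3, 3.69 ± 0.633, 2.99 ± 0.895, 2.37 ± 1.18, 1.45 ± 0.358 and 0.774 ± 0.305 CPM (SD, n = 3 each). Of neighbours in this order, C and ES1, ES1 and ES2, and ES2 and PC overlapped, while ES3 and C, and PC and EC, did not. For GA2ox7 the order was ES3, C, ES2, ES1, EC and PC, with means of 33.4 ± 10.5, 13.2 ± 2.74, 8.42 ± 3.07, 2.02 ± 0.451, 0.906 ± 0.536 and 0.626 ± 0.391 CPM. Here the neighbours C and ES2, and EC and PC, overlapped.

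The first place did not depend on the scaling, but the second did. In plain CPM, with the deposited total of each library as its size, the ES3 means were 44.2 ± 15.2 CPM for GA2ox3 and 31.6 ± 11.6 CPM for GA2ox7, and ES3 again lay above the other 15 libraries. On that scale C was the fifth of the 6 stages for GA2ox3, at 1.11 ± 0.196 CPM, and overlapped EC at 1.03 ± 0.411 CPM. For GA2ox7, C was the third at 3.95 ± 0.785 CPM, below ES2 at 9.07 ± 3.24 CPM and above ES1 at 2.48 ± 0.497 CPM, without overlap on either side.

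**Figure D2:**
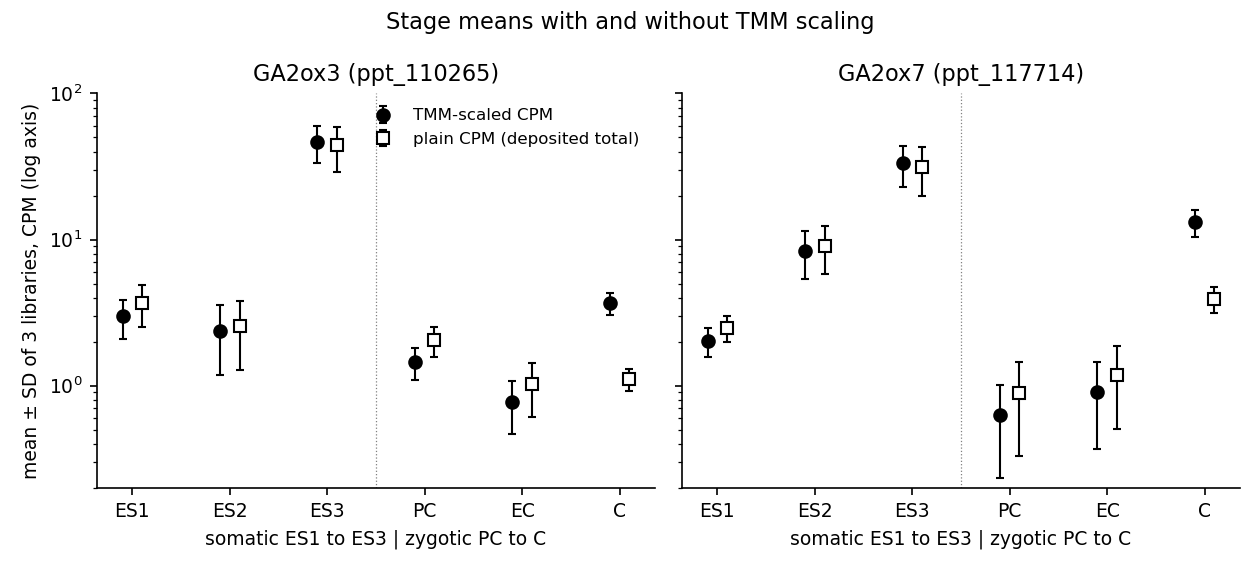
Stage means ± SD of 3 libraries for GA2ox3 (left) and GA2ox7 (right) on a log axis, as TMM-scaled CPM (filled circles) and as plain CPM (open squares). The means on the 2 scales differ by 1.06-fold to 1.42-fold in 5 stages and by 3.33-fold and 3.34-fold in C, where GA2ox3 has 3.69 and 1.11 CPM and GA2ox7 has 13.2 and 3.95 CPM.

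Both transcripts were higher in SE than in ZE at each of the 3 stages as paired by the study, by an amount that differed between them. In ES1 against PC the fitted log2 fold change was 1.04 (standard error 0.39) for GA2ox3 and 1.67 (0.46) for GA2ox7. In ES2 against EC it was 1.62 (0.41) for GA2ox3 and 3.25 (0.45) for GA2ox7, and in ES3 against C it was 3.66 (0.41) and 1.34 (0.40). On this scale GA2ox3 had its widest gap at the last stage and GA2ox7 at the middle one. With the deposited totals GA2ox7 gave 2.95 in ES2 against EC and 3.00 in ES3 against C, so its order of the 2 gaps depends on the scaling. In each of these comparisons the 3 SE libraries lay above the 3 ZE libraries in TMM-scaled CPM for both transcripts, a pattern shared by 36.9%, 34.1% and 38.1% of all kept transcripts at the first, the second and the third of these stages. Non-overlap by itself therefore did not set the 2 transcripts apart, and both had passed the filter only through SE. In plain CPM it held at each stage for GA2ox7, but GA2ox3 then overlapped in ES1 against PC, where ES1 replicate A had 2.36 CPM against 2.45 in PC replicate 2, and in ES2 against EC, where ES2 replicate A had 1.11 CPM against 1.31 in EC replicate 2. Taken against the median log2 fold change of all kept transcripts, ES3 against C gave 3.47 for GA2ox3 and 1.15 for GA2ox7 with TMM, and 3.48 and 1.16 when the deposited totals served as library sizes. That median was 0.19 with TMM, 1.84 with the deposited totals and 1.34 with library size alone.

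Between the somatic stages GA2ox7 differed first and GA2ox3 later. In ES2 against ES1 the log2 fold change was 2.05 (standard error 0.42) for GA2ox7, with no overlap, and -0.33 (0.38) for GA2ox3, with overlap. The 3 later libraries lay above the 3 earlier ones for 25% of all kept transcripts in this step. In ES3 against ES2 it was 4.30 (0.42) for GA2ox3 and 1.99 (0.41) for GA2ox7, both without overlap, a pattern that 13.4% of kept transcripts shared. Without ES2 replicate A, which had the lowest GA2ox3 and the highest GA2ox7 of its stage, the ES3 against ES2 values were 3.94 for GA2ox3 and 2.32 for GA2ox7. Without ES3 replicate C, the library that stood apart, they were 4.43 and 2.13, and those of ES3 against C were 3.78 and 1.47.

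Between the zygotic stages both were low until EC. In EC against PC the log2 fold change was -0.91 (standard error 0.42) for GA2ox3, whose EC libraries all lay below PC, as did those of 18.5% of kept transcripts. For GA2ox7 it was 0.48 (0.47), with overlap, and this value ran between -0.01 and 1.14 when 1 library was left out. In C against EC it was 2.26 (0.42) for GA2ox3 and 3.89 (0.46) for GA2ox7, and C lay above EC in both on the TMM scale, as it did for 34.8% of kept transcripts. With the deposited totals these became 0.12 and 1.75, while the median of all kept transcripts became -2.20, against -0.07 with TMM.

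The second step set SE and ZE apart in opposite directions for the 2 transcripts. The log2 difference of ES3 over ES2 exceeded that of C over EC by 2.04 (standard error 0.56) for GA2ox3, whereas for GA2ox7 the difference of the 2 steps was -1.91 (0.58). The second value was 0.05 with the deposited totals and -0.45 with library size alone. Relative to the median of all kept transcripts it was -2.05 with TMM and -2.03 with the deposited totals. For the first step, ES2 over ES1 against EC over PC, the difference was 0.58 (0.56) for GA2ox3 and 1.57 (0.63) for GA2ox7, with 0.92 for GA2ox7 without PC replicate 3.

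A ratio of counts taken within a library needs no scaling, and it separated ES3 from C. GA2ox7 counts per GA2ox3 count were 1.27, 0.571 and 0.447 in ES1, 11.6, 2.01 and 2.40 in ES2 and 0.733, 0.694 and 0.709 in ES3. In ZE the ratio was 0.364, 0.235 and 0.710 in PC, 1.57, 0.88 and 0.95 in EC and 2.37, 4.27 and 4.42 in C. ES3 had a narrow ratio below 1 in all 3 libraries, and C had a ratio above 2 in all 3, so the cotyledonary stages of the 2 embryo types did not overlap. Other stages did, as the ES1 libraries overlapped PC, EC and ES3 and the range of ES2 held that of C. Within SE the ratio was highest in ES2, where the value of 11.6 rests on 43 counts of GA2ox3 in replicate A. Over the 18 libraries, log2(CPM + 1) of GA2ox3 and GA2ox7 had a Pearson correlation of 0.80, and of 0.59 over the 15 libraries without ES3. These libraries share stages and depth, and the values are a description.

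The transcriptome holds 2 further transcripts named GA2ox3, ppt_135755 and ppt_135768, also hub genes of the purple module. Each exceeded 2 CPM in 7 SE libraries, and in 2 and 3 ZE libraries, so they too passed the filter only through SE. How reads that match several transcripts were counted is not given in the sources used here, so the split among the 3 is uncertain. In ES3 ppt_135755 had 44.9, 23.1 and 24.5 CPM and ppt_135768 had 27.1, 15.3 and 26.2 CPM. In C they had 5.64, 7.03 and 5.15 CPM and 8.32, 8.91 and 9.81 CPM. Both thus had ES3 above C without overlap, as did 38.1% of all kept transcripts on the TMM scale, and in both scales ES3 was the highest stage.

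The 3 transcripts named GA2ox3 did not keep a fixed share of their summed counts. The share of ppt_135768 was 45.6% to 57.9% in ES2 and 45.4% to 54.4% in C, but 13.8% to 25.3% in ES1, 19.3% to 29.9% in ES3 and 13.1% to 16.7% in PC. The share of ppt_110265 was 42.2% to 51.7% in ES3 and 17.0% to 23.7% in C. In EC the shares scattered widely on 75 to 82 summed counts per library. Across the 18 libraries ppt_110265 followed ppt_135755 (r = 0.96) more closely than ppt_135768 (r = 0.85), and GA2ox7 followed ppt_135768 (r = 0.96) more closely than ppt_135755 (r = 0.85). The stage pattern of ppt_135768, with ES2 above ES1 and a high C, was thus nearer to that of GA2ox7 than to that of the GA2ox3 transcript ppt_110265. With the 3 summed, the log2 fold change of GA2ox3 in ES3 against C was 2.43, against 3.66 for ppt_110265 alone, and the difference of the second steps was 0.36, against 2.04.

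**Figure D3:**
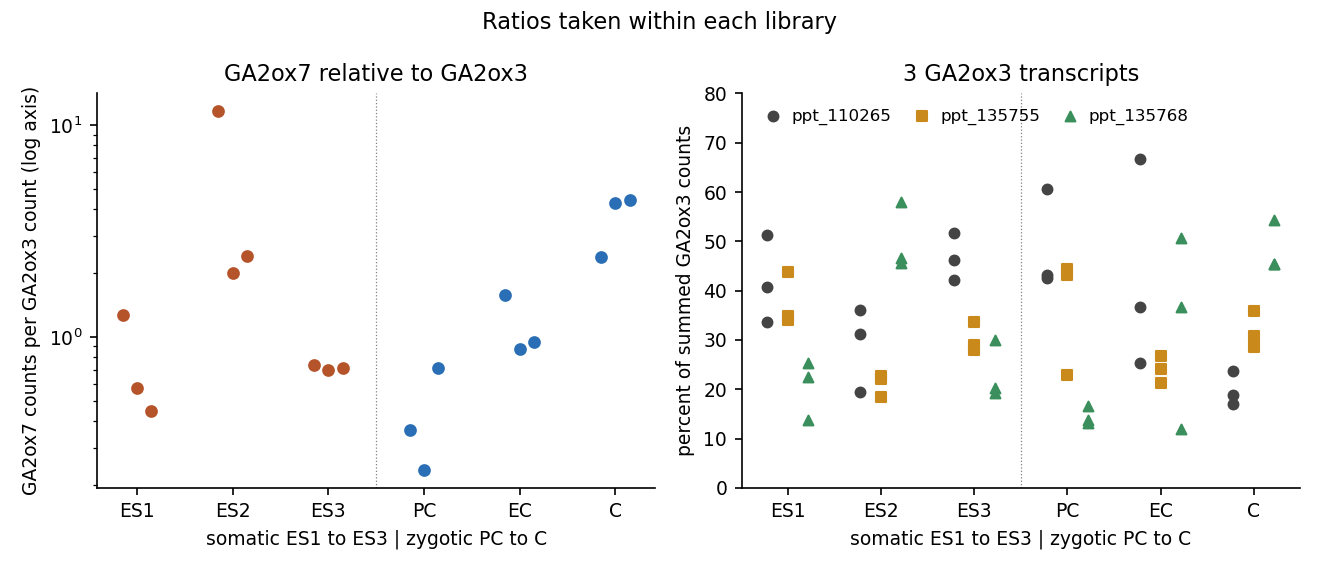
Left, GA2ox7 counts per GA2ox3 (ppt_110265) count in each library on a log axis, with SE in orange and ZE in blue, and right, the percent of the summed counts of 3 GA2ox3 transcripts that fell on each of them. The ratio is 0.694 to 0.733 in ES3 and 2.37 to 4.42 in C, and ppt_135768 (triangles) takes the largest share in ES2 and C.

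GA2ox1 (ppt_53170), the remaining gibberellin 2-oxidase by name and no hub gene, was lower in SE than in ZE, opposite to GA2ox3 and GA2ox7. Within ZE it was higher in C than in EC, as they were on the TMM scale. Its counts were 0 in 7 of the 9 SE libraries and 2 in each of the other two, out of 315604281 counts in all, against 11, 15 and 10 in PC, 19, 42 and 18 in EC and 319, 277 and 362 in C. It exceeded 2 CPM in the 3 C libraries only and so failed the filter. In plain CPM it was at 4.10, 3.09 and 4.83 in C. ES1 had no count where PC had 36, at least 11.1-fold lower with a floor of 3 counts over the stage. For ES2 against EC the ratio of plain CPM was 0.0212 (95% interval 0.00252 to 0.0792, exact binomial), and for ES3 against C it was 0.00438 (0.000529 to 0.0159), intervals that cover counting error only. In plain CPM C had 4.95 times the level of EC (3.94 to 6.31). On the TMM scale, with a looser filter of 1 CPM in at least 3 libraries, its log2 fold change in C against EC was 4.37 (standard error 0.46). A transcript missing from the genotype of line PN519 and a transcript not made in SE cannot be told apart.

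The other transcripts with gibberellin names were tested with edgeR's quasi-likelihood test, Benjamini-Hochberg adjusted over the 23118 kept transcripts, and a transcript counted as called if its adjusted p was under 0.05 and its level differed more than 2-fold. Values with an adjusted p are log2 fold changes ± standard error from this test. Of 18 such transcripts, 4 are the GA2ox3 and GA2ox7 transcripts described above and 1 is GA2ox1, which leaves 13. In ES1 against PC, 4 of the 13 were higher and 7 lower, where 24.2% of all kept transcripts were higher and 13.5% lower. In ES2 against EC, 4 were higher and 8 lower, against 22.7% and 16.7% of all. For ES3 against C the numbers were 6 higher and 4 lower, against 29.9% and 15.1%. This split depends on the scaling, with 6 higher and 0 lower with library size alone, against 60.5% and 4.88% of all, and 8 higher and 0 lower with the deposited totals, against 75.8% and 3.66%. With TMM the 10 calls of ES3 against C became 7 without ES3 replicate C, the library that stood apart, and 11 without ES3 replicate A.

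The calls of 4 transcripts in these counts were fixed by the filter. The 4 GASA2 transcripts exceeded 2 CPM in all 9 SE libraries and in 0 of the 9 ZE libraries, so they were kept only through the embryo type in which they are high, and their place among the higher ones is no result. Of the other 9, edgeR called 0 higher and 7 lower in ES1 against PC, 0 higher and 8 lower in ES2 against EC and 2 higher and 4 lower in ES3 against C. The GID1-like transcript GLP2 (ppt_243038) is among these 9. It exceeded 2 CPM in 6 ZE and 3 SE libraries, so it was kept only through ZE, and its calls are a description. DESeq2 called 0 higher and 8 lower in both of the earlier comparisons, and at an unadjusted p under 0.05 edgeR had 9 of the 9 in ES1 against PC and 8 in ES2 against EC. The shares of all kept transcripts by DESeq2 and at this unadjusted p were not taken, so these counts are no result about the list. In ES3 against C the 9 gave 2 higher and 0 lower with library size alone and 4 higher and 0 lower with the deposited totals. Their median log2 fold change was -1.19, -1.46 and -0.99 at the 3 stages with TMM, beside 0.03, -0.04 and 0.19 for all kept transcripts. Of the 9, 5 are KAO transcripts that may share reads. The medians and the counts of lower calls thus rest largely on KAO and do not describe the list as a whole.

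On the side of synthesis, all 5 KAO transcripts (ppt_120673 to ppt_120677, matches of Arabidopsis KAO2) had values below 0 of similar size at the first and second stages, and 4 were called lower in ES1 and 5 in ES2. They had similar counts in every library, and since the treatment of reads with several matches is not given, the 5 may share reads and their number of calls is uncertain. The most abundant, ppt_120676, had 6.35, 8.01 and 6.42 CPM in ES1 against 14.6, 17.3 and 15.7 CPM in PC, a difference of -1.19 ± 0.17 (adjusted p = 2.15e-05). In ES2 it had 7.30, 8.03 and 8.04 CPM against 20.6, 18.8 and 19.0 CPM in EC (-1.32 ± 0.17, adjusted p = 7.51e-06). The next, ppt_120675, gave -1.09 (0.20) and -1.46 (0.20) in these comparisons (adjusted p = 0.000208 and 1.34e-05). The 5 log2 fold changes lay between -1.19 and -0.996 in ES1 against PC and between -1.59 and -1.32 in ES2 against EC, and the transcript not called, ppt_120674, was just under the fold threshold. The groups did not overlap in either of the transcripts given here, but the share of all kept transcripts with SE below ZE was not taken. In the other direction non-overlap was common, with SE above ZE for 36.9% and 34.1% of all kept transcripts in these comparisons.

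At the last stage the direction for KAO depended on the scaling. With TMM, ppt_120676 had 11.2, 7.78 and 7.89 CPM in ES3 against 22.4, 16.6 and 17.1 CPM in C (-1.06 ± 0.17, adjusted p = 4.22e-05), and 4 of the 5 were called lower, with values between -1.12 and -0.99. With the deposited totals the 5 lay between 0.52 and 0.66 and with library size alone between 0.02 and 0.16, and none was called. Relative to the median of all kept transcripts they lay between -1.32 and -1.18 with TMM and with the deposited totals alike. None of the 5 was called in ES2 against ES1, ES3 against ES2, EC against PC or C against EC by edgeR with TMM or by DESeq2. In C against EC all 5 were called lower with library size alone, where the median of all kept transcripts was -1.71.

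The counts of the 4 GA2ox3 and GA2ox7 transcripts were set against those of the 5 KAO transcripts within each library, a ratio chosen after the values had been seen. It was 0.271, 0.229 and 0.310 in ES1, 0.585, 0.509 and 0.422 in ES2 and 3.76, 3.21 and 3.38 in ES3. In ZE it was 0.0389, 0.0567 and 0.0532 in PC, 0.0402, 0.0282 and 0.0240 in EC and 0.333, 0.474 and 0.404 in C. SE lay above ZE at each of the paired stages, and the 3 ES3 libraries lay above the other 15. All 4 GA2ox transcripts are purple hub genes that passed the filter only through SE, so this separation is a description and no result. Transcript lengths were not used, so only the change of the ratio between libraries can be read.

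**Figure D4:**
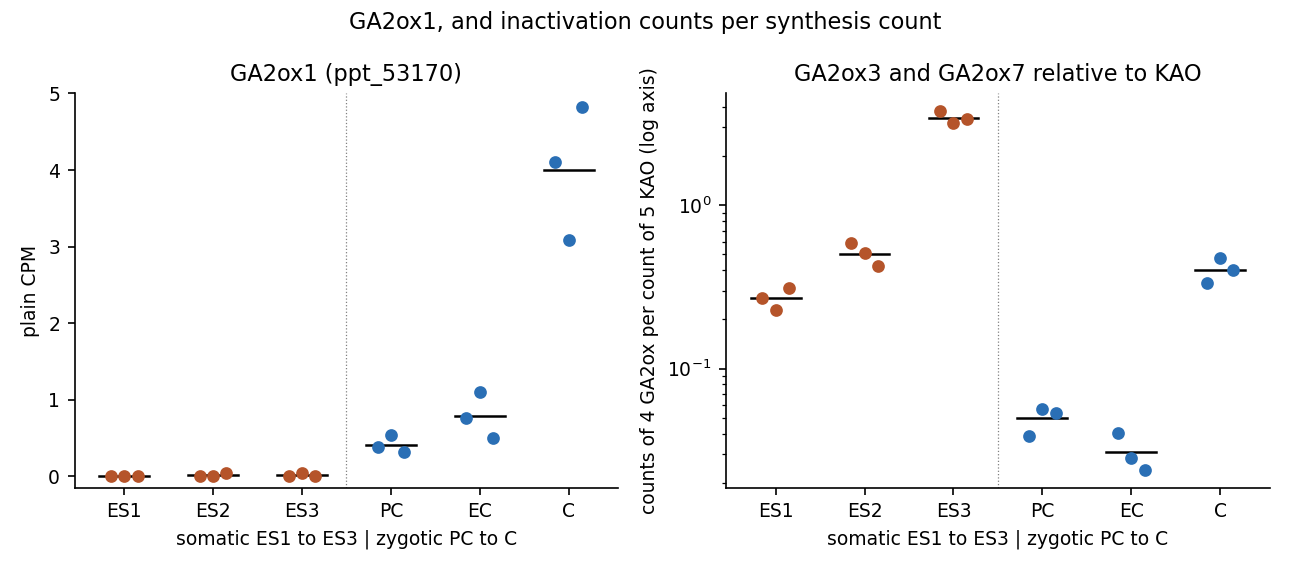
Left, plain CPM of GA2ox1 in each library on a linear axis, and right, counts of the 4 GA2ox3 and GA2ox7 transcripts per count of the 5 KAO transcripts on a log axis, with SE in orange, ZE in blue and bars for the mean of 3. GA2ox1 is near 0 in SE and at 3.09 to 4.83 CPM in C, and the ratio reaches 3.21 to 3.76 in ES3 against 0.333 to 0.474 in C.

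Among transcripts that resemble the receptor, 3 match GID1-like proteins of the moss Physcomitrella, a name that does not show a receptor function in pine. GLP1 (ppt_44484) was the most abundant of them and was not called at any paired stage with TMM. It had 38.6, 35.0 and 28.7 CPM in ES1 against 26.3, 19.9 and 22.8 CPM in PC (0.57 ± 0.17, adjusted p = 0.011) and 18.02, 18.8 and 23.6 CPM in ES3 against 29.0, 19.3 and 19.8 CPM in C (-0.17 ± 0.18, adjusted p = 0.402). For ES3 against C the direction turned with the scaling, to 0.96 with library size alone and to 1.45 with the deposited totals, where edgeR called it higher (adjusted p = 7.15e-07), and relative to the median of all kept transcripts it was -0.37 with TMM and -0.38 with the deposited totals. The other GLP1 transcript (ppt_246341) and GLP2 (ppt_243038) were lower in SE at the first and second stages and higher at the third. For ppt_246341 there were 1.12, 1.43 and 3.64 CPM in ES3 against 0.0849, 0.0752 and 0 CPM in C (5.14 ± 0.63, adjusted p = 3.07e-06). In ES1 it had 1.76, 2.34 and 2.20 CPM against 5.90, 7.06 and 4.73 CPM in PC (-1.49 ± 0.41, adjusted p = 0.00575). In SE its mean level was 2.10 CPM in ES1, 2.08 in ES2 and 2.06 in ES3, and in C both transcripts were nearly absent.

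Of the GASA transcripts, the 4 named GASA2 had their counts almost only in SE and the Gasa5-like one was lower in SE at the first and second stages. GASA2 transcripts are hub genes of the brown module, which the study picked on these libraries, and they passed the filter through SE alone, so their levels are given as a description, with no test, and reads that match several of them may be split among them. The most abundant, ppt_168202, had 8.46, 4.85 and 4.75 CPM in ES1 against 0, 0.0519 and 0.638 CPM in PC. At the last stage it had 32.9, 33.0 and 21.5 CPM in ES3 against 0.0849, 0.15 and 0.222 CPM in C. Of the other 3, ppt_168203 and ppt_168205 were at 0 in C and at least 222-fold and 171-fold higher in ES3, and ppt_168204 was at 0 in PC and at least 89.1-fold higher in ES1, each with a floor of 3 counts over the stage. In plain CPM no ZE library had more than 0.906 of any GASA2 transcript.

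The Gasa5-like transcript (ppt_159540), the only one of the list matched to a protein of Pinus pinaster itself, had 1.19, 1.83 and 0.461 CPM in ES1 against 10.9, 12.3 and 6.86 CPM in PC (-3.09 ± 0.44, adjusted p = 2.37e-05). In ES2 it had 2.02, 2.42 and 1.93 CPM against 19.9, 12.3 and 10.8 CPM in EC (-2.75 ± 0.43, adjusted p = 4.92e-05). In ES3, at 8.17, 5.82 and 3.60 CPM, it overlapped C, at 9.04, 9.02 and 4.88 CPM (-0.38 ± 0.40, adjusted p = 0.42). This direction also turned with the scaling, to 0.79 with library size alone and to 1.29 with the deposited totals, where edgeR called it higher (adjusted p = 0.00824), and relative to the median of all kept transcripts it was -0.57 with TMM and -0.55 with the deposited totals. Like GA2ox3 and GA2ox7 it was higher in ES3 than in ES2 (1.47 ± 0.41, adjusted p = 0.0336), a call that was lost with other filters, with library size alone, with ES2 and ES3 fitted alone and without any 1 of the 3 ES2 libraries, ES3 replicate A or ES3 replicate B.

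**Figure D5:**
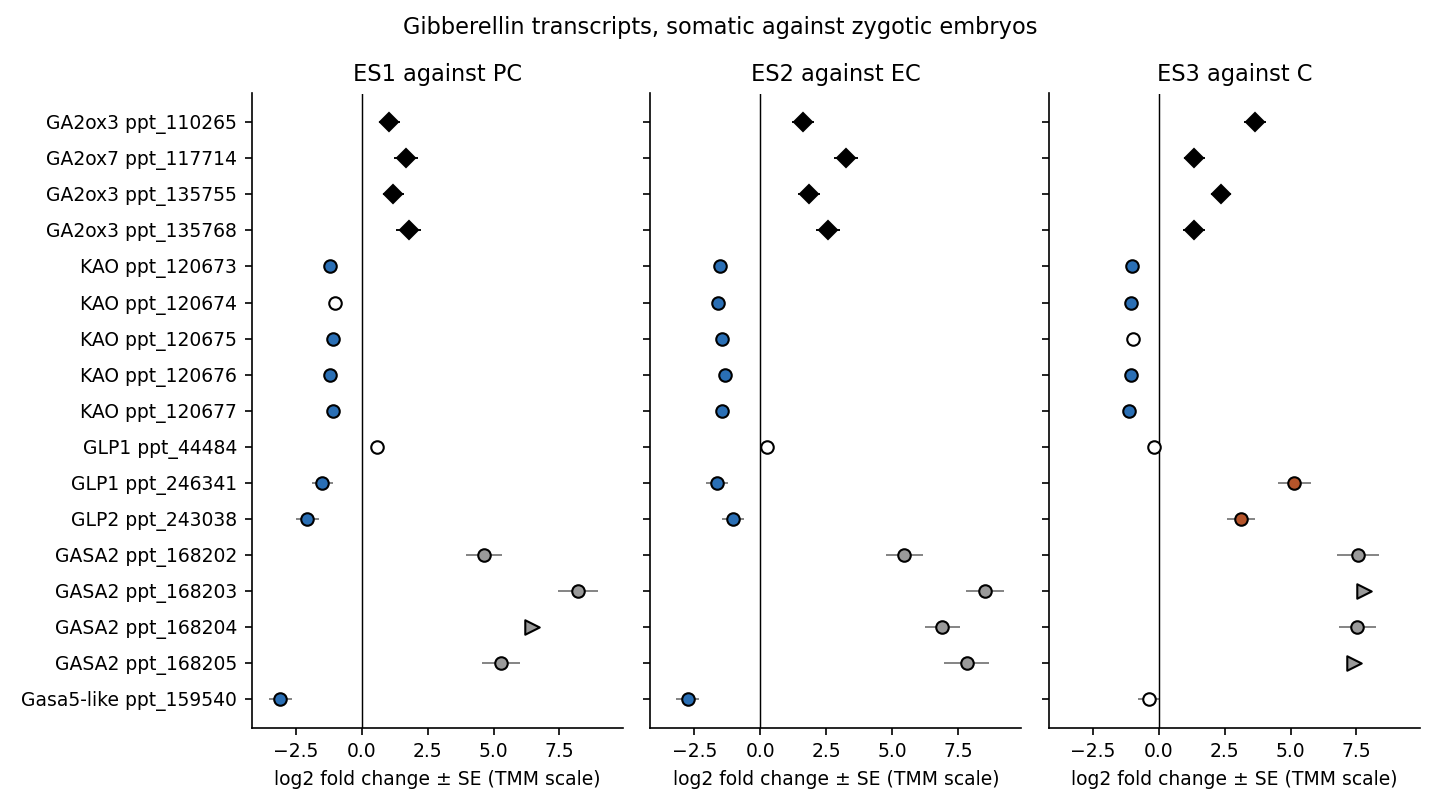
Log2 fold changes ± standard error, on the TMM scale, of 17 gibberellin transcripts in ES1 against PC, ES2 against EC and ES3 against C, where black diamonds are GA2ox3 and GA2ox7 transcripts (no test), orange is called higher and blue called lower in SE, white is not called, grey is GASA2 (no test), and arrowheads are lower bounds against a stage at 0. The GA2ox and GASA2 transcripts lie to the right of 0 at each stage and KAO to the left, although with library size alone or the deposited totals KAO, GLP1 ppt_44484 and the Gasa5-like transcript lie to the right in ES3 against C. GLP1 ppt_246341 and GLP2 change side in ES3 against C.

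Between consecutive stages few of the 13 were called. In ES2 against ES1, 1 was higher and 0 lower, where 8.42% of all kept transcripts were higher and 9.6% lower. The 1 was GASA2 ppt_168204 (1.81 ± 0.48), which passed the filter only through SE, so this call is a description. That call was lost without ES2 replicate A, and without ES1 replicate A or B the count was 2. In ES3 against ES2 the Gasa5-like transcript was the 1 called higher and 0 were lower, against 1.65% and 2.72% of all. In EC against PC edgeR called 0 of the 13, with 1 at an unadjusted p under 0.05, 1 called by DESeq2 and 1 called by edgeR without PC replicate 3, where 5.83% of all were higher and 2.25% lower. In C against EC GLP1 ppt_246341 and GLP2 were lower and 0 higher, against 29% lower and 22.7% higher of all, and without EC replicate 3 the count was 3. GLP2 passed the filter only through ZE. Without the 4 GASA2 transcripts, edgeR called 0 of 9 in ES2 against ES1 and in EC against PC. It then called 1 higher in ES3 against ES2 and 2 lower in C against EC. In ES3 against ES2, where GA2ox3 and GA2ox7 differed by 4.30 and 1.99, the 5 KAO transcripts lay between 0.07 and 0.39 and the 3 GLP transcripts between -0.49 and -0.03 on the log2 scale.

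The difference between the steps of SE and ZE was tested directly for the same 13. For the first step edgeR called 0, with 0 at an unadjusted p under 0.05 and 0 called by DESeq2, where 1.07% of all kept transcripts were higher and 2.08% lower. For the second step 3 were higher and 0 lower, against 25.9% and 18% of all. These were GLP1 ppt_246341 (6.77 ± 0.76, adjusted p = 2.07e-06), the Gasa5-like transcript (2.37 ± 0.57, adjusted p = 0.00241) and GLP2 ppt_243038 (4.15 ± 0.68). GLP2 passed the filter only through ZE, so its value is a description. Without the 4 GASA2 transcripts the calls were 0 of 9 for the first step and 3 higher and 0 lower for the second. The number was 11 with the deposited totals and 9 with library size alone, where the median of all kept transcripts was 2.07 and 1.58 against 0.14 with TMM.

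A highest mean in ES3 was not rare in itself, as 2955 of the 23118 kept transcripts (12.8%) had it. ES3 exceeded the next stage 12.6-fold for GA2ox3 and 2.53-fold for GA2ox7, places 3 and 49 among those 2955, whose median lead was 1.19-fold. Both were picked as hub genes of a module built on these libraries, so these places are a description and do not set them apart. The purple hub genes were grouped by the study for a common pattern in these libraries, so their likeness is no finding. All 19 besides the GA2ox transcripts were highest in ES3, with leads of 2.25 to 50.5-fold and a median of 4.22-fold, above the lead of GA2ox7. ES1 or ES2 came second in 17 of the 19 and C in 2. Among them were a gamma-glutamylcyclotransferase (ppt_97947, 2.97-fold), which breaks down gamma-glutamyl peptides, and a xyloglucan endotransglucosylase/hydrolase (ppt_64100, 2.25-fold), which remodels the cell wall. For GA2ox3 and GA2ox7 the second place on the TMM scale was that of C.

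The transcripts most like each member were sought by Pearson correlation of log2(CPM + 1) over the 18 libraries, which share stage, depth and scaling, and the values are a description. For GA2ox3 these were ppt_155452 (r = 0.96), the GA2ox3 transcript ppt_135755 (0.96), ppt_101338 (0.92), ppt_122271 (0.92) and ppt_132138 (0.91), of which only ppt_135755 has a protein name here. The nearest with a name after it were matches of SULFUR DEFICIENCY-INDUCED 1, a regulator of sulfur use in Arabidopsis, ppt_235573 and ppt_235563 (r = 0.88 and 0.87) and ppt_235574 (0.85), and an uncharacterized spruce match, ppt_194467 (0.85). All of the named ones are purple hub genes.

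For GA2ox7 the most alike was ppt_162813 (r = 0.98), a match of fatty acyl-CoA reductase of Cryptomeria japonica, an enzyme that makes the fatty alcohols of waxes. It had means of 2.58, 8.19 and 18.2 CPM in ES1, ES2 and ES3 and of 0.822, 1.99 and 11.5 CPM in PC, EC and C, an order of stages like that of GA2ox7. Next came ppt_135765 (0.97), ppt_121515 (0.96), ppt_91883 (0.96) and ppt_136828 (0.96), without a usable name, and by name an uncharacterized spruce match, ppt_208656 (0.96), the GA2ox3 transcript ppt_135768 (0.96) and another fatty acyl-CoA reductase, ppt_162811 (0.96). Of these only ppt_135768 is a purple hub gene. A correlation above 0.9 was reached by 8 kept transcripts with GA2ox3 and by 347 with GA2ox7, so that the pattern of GA2ox7 was the more common one. With the other 22 purple hub genes the median correlation was 0.80 for GA2ox3 and 0.67 for GA2ox7.

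Other dioxygenases that use 2-oxoglutarate had unlike levels among themselves. Of 5 transcripts named flavanone 3-hydroxylase or flavanone 3-dioxygenase, enzymes of flavonoid synthesis, ppt_120249 and ppt_120253 were highest in C, 58.2-fold and 67.7-fold above the next stage in TMM-scaled CPM. They were also highest there in plain CPM, at means of 163 and 295 CPM. The flavanone 3-dioxygenase ppt_100235 had its highest mean in C with TMM, at 6.06 CPM, and in EC in plain CPM, at 4.98 CPM. For ppt_255372 and ppt_255373 the highest mean was that of ES3, 1.40-fold and 1.26-fold above ES2, with overlap. These levels are a description, since ppt_120253 exceeded 2 CPM in ZE libraries only and so passed the filter through ZE alone.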

How the data were processed

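The authors deposited 1 table of whole-number read counts per transcript for the 18 libraries. Per the methods they trimmed reads with SeqTrimBB, built a transcriptome with Trinity 2.11, CD-HIT-EST and Mira, mapped reads with BWA MEM and counted them with sam2counts. For BWA the version, and for reads with several matches the treatment, is not given in the sources used here. The RNA selection used oligo(dT), and no strand setting is stated. All 18 columns matched a library and 0 were left unused.

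The filter on low counts, more than 2 CPM in 6 or more libraries, was that of the methods. Counts were scaled by TMM and fitted with edgeR 4.0.16 (R 4.3.3, limma 3.58.1) in 1 quasi-likelihood model of 6 groups, with p-values adjusted by Benjamini-Hochberg over all kept transcripts. A standard error is the size of a log2 fold change over the root of its F statistic. The fit was tested on simulated data.

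The 2 members and the gene lists (18 gibberellin transcripts, 23 purple hub genes, 5 other dioxygenases, 16 embryo markers, drawn from names in the study's supplementary tables) were chosen with earlier results of these data known. Named transcripts are the members, the other GA2ox, the 2 most abundant per role and the 5 most alike transcripts per member, and transcripts beyond these were singled out after their values were seen. The 2 further GA2ox3 transcripts were left out of the tested list, being hub genes of the same module that may share reads.

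Alternatives were library size alone, DESeq2 size factors, looser filters, DESeq2 1.42.0, a fit of only the groups compared, a replicate block, no fold threshold, an adjusted p under 0.01, summed GA2ox3 transcripts and leaving out each library. The deposited totals as library sizes, and counts of calls without the GASA2 transcripts, were added after seeing the data.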

Additional observations from a re-analysis of the deposited data

Results flagged for a closer look

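The second step differed between SE and ZE for 3 of the 13 tested gibberellin transcripts, in edgeR's test of ES3 over ES2 against C over EC. All 3 were called higher, where 25.9% of all kept transcripts were called higher and 18% lower, so the count by itself does not set the list apart. GLP1 GID1-like ppt_246341 had a difference of 6.77 on the log2 scale and GLP2 GID1-like ppt_243038 of 4.15, both with levels near 2 CPM in ES3 and ES2 and a fall to 0.0533 and 0.186 CPM in C, against 6.46 and 4.79 CPM in EC. GLP2 passed the filter only through ZE, so its difference is a description. The Gasa5-like transcript ppt_159540 had a difference of 2.37, with 5.86 and 2.12 CPM in ES3 and ES2 and 7.65 and 14.3 CPM in C and EC. With 3 libraries per stage, no outlier test of single values was run within a stage.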

How the results depend on the processing

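In ES1 against PC and ES2 against EC the log2 fold changes of GA2ox3 and GA2ox7 moved by less than the spread between replicates under every alternative other than leaving out a library. Values with C moved most. With library size alone, ES3 against C gave 4.81 for GA2ox3, 2.5 for GA2ox7 and 6 called gibberellin transcripts of 13, with 0.086 for KAO ppt_120676, against -1.06 with TMM. C against EC then gave 0.62, 2.25 and 11 calls, the difference of the second steps 3.49, -0.45 and 9 calls, with 0.17 for the GA2ox3 transcript ppt_135768, against -1.24 with TMM, and ES3 against ES2 gave 0 calls. With the deposited totals, chosen after seeing the data, ES3 against C gave 5.31, 3.00 and 8 calls, all higher, with 0.58 for ppt_120676. C against EC gave 0.12, 1.75 and 12 calls, the second steps 3.99, 0.046 and 11 calls, with 0.67 for ppt_135768, and ES3 against ES2 gave 0 calls. These moves follow the shift of the median of all kept transcripts. With the 3 GA2ox3 transcripts summed, GA2ox3 had 2.43 in ES3 against C, 3.32 in C against EC and 0.36 for the second steps.

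Counts of calls between stages rested on single transcripts. In ES3 against ES2 the count was 0 with either looser filter, an adjusted p under 0.01 or only the groups compared, and 0 to 1 with 1 library left out. In ES2 against ES1 it was 2 with no fold threshold, 0 under 0.01, 2 with DESeq2, 4 with only the groups compared and 0 to 2 with 1 library left out, and in EC against PC it was 1 with DESeq2 and 0 to 1 with 1 library left out. Their causes were not tested beyond the stated settings. The log2 fold change of GA2ox7 ran between 1.42 and 2.33 in ES1 against PC and between 0.92 and 2.06 for the first steps with 1 library left out.

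Replicate letters and numbers were not used as a pairing in the main fit. Deviations of libraries with the same letter or number correlated between -0.43 and 0.38 over the pairs of consecutive stages. Libraries with different labels were not compared, so these values cannot exclude a pairing. With a replicate block the count in ES2 against ES1 was 2, and in the other 3 steps it was within 1.5 times that without the block. Transcripts at a few CPM, such as both members in PC and EC, rest on 16 to 69 counts per library, which limits what can be said of differences between these stages.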
